A study of Mus musculus with 15 samples.

Results

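The report concerns Th9 cultures of mouse CD4 T cells that were activated in different ways, by plate-bound antibodies (PBAB) or by an antigen presented on splenocytes (HA). The 4 arrays were selected by their titles, 2 PBAB and 2 HA arrays out of 15 arrays in the series, and are named below by activation and replicate number. In PBAB cultures the stimulus was anti-CD3 at 1 µg/ml with anti-CD28 at 10 µg/ml on the plate. In HA cultures it was hen egg lysozyme (HEL) at 1 µg/ml, with irradiated (30 Gy) naive wild-type splenocytes of the same background, at 1250000 per ml, as antigen-presenting cells. Both groups shared everything else that the labels give. The T cells were naive CD4 cells from spleen and lymph nodes of 3A9 mice, which carry a transgenic T cell receptor for HEL, and were sorted with the antibody 1G12 against that receptor. They were seeded at 250000 per ml in 2 ml with TGF-beta (1 ng/ml) and IL-4 (10 ng/ml), the cytokine mixture that steers naive cells to the Th9 fate, and RNA was taken at day 4. A single further array, labelled Th9 culture with APC alone, served only to mark genes that may come from splenocytes, and the labels do not define its content. The labels call the replicates biological without naming animals or cultures. The p-values below refer to the spread between replicate arrays, which may be technical. That spread was taken over the 12 activated arrays of the series, those of Th1 and Th17 cultures included. The series addresses whether the mode of activation changes the phenotype of T helper cells.

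Th9 cells are helper T cells named for interleukin 9, a cytokine of mast cell growth and of allergic and anti-worm responses. IL-4 acts through STAT6 and GATA3, TGF-beta acts through SMAD proteins and PU.1 (gene Spi1), and T cell receptor signals act through IRF4 and BATF, and these inputs meet at the Il9 gene. Antibodies against CD3 and CD28 cross-link the receptor complex without a presenting cell, whereas a presented peptide engages the receptor together with the adhesion and costimulatory ligands of the presenting cell.

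All values are log2 signals as deposited, and differences are PBAB minus HA on that scale with the standard error (SE) of a limma fit, with 2 arrays per group. A gene is referred to as called where its Benjamini-Hochberg adjusted p was under 0.05 over all 15498 genes tested. The 2 PBAB arrays correlated at 0.989 over genes and the 2 HA arrays at 0.986, and a PBAB and an HA array correlated at 0.964 to 0.975. The APC alone array stood apart, with correlations of 0.649 to 0.676 to these 4 and a median of 5.91 against 5.45 to 5.52. Its interquartile range was 2.04 against 3.11 to 3.48, and its bioB hybridisation control 13.71 against 9.45 to 10.70. The 3'-minus-5' difference of actin, a sign of RNA quality, was 0.20 and 0.16 in PBAB 1 and 2, against 0.11 and 0.05 in HA 1 and 2. The 18S ribosomal signal was 11.11 and 9.98 in PBAB, against 10.47 and 9.34 in HA. Their part in the results was not tested. In RNA of whole cultures, fewer cells of a type and less RNA per cell cannot be told apart.

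Of the 15498 genes tested, 2126 were called (13.7%), of which 1146 were higher (7.39%) and 980 lower (6.32%) in PBAB cultures. The difference reached 1 in 619 of the higher and 524 of the lower genes, and 2 in 117 and 112. In all 2126 the PBAB arrays lay outside the range of the HA arrays, as they did in 7280 of all genes tested (47.0%). A lack of overlap stated below for a called gene is therefore no separate support for it. The median difference of all genes tested was 0.01, and a median in brackets below is that of the tested members of a list. Replicate numbers were found to pair the arrays, a pairing that the fit above did not use. When that number entered the model as a block, the model called 2139 genes higher and 1917 lower. Without PBAB 1, PBAB 2, HA 1 or HA 2 the counts were 515, 713, 881 and 452 higher, and 565, 500, 543 and 604 lower. The APC alone array equalled or exceeded the higher HA array in 44.3% of the genes tested, in 267 of the 1146 higher genes (23.3%) and in 102 of the 980 lower genes (10.4%). This mark depends on the HA arrays, so a low HA signal favours it and a high HA signal disfavours it. It does not show which cells a signal came from. The part of the higher median and narrower range of the APC alone array in the 44.3% was not tested. PBAB cultures received no splenocytes, so the mark has no bearing on the source of genes called higher. The APC alone signal was at least 2 above both HA arrays in 679 genes tested (4.38%), 18 of them called higher and 27 called lower. Counts of gene lists below are to be read against the shares of all genes called higher (7.39%) and lower (6.32%). In all, 241 different genes were called in at least 1 list. Of these, 113 were also called in every fit that left out 1 of the 4 arrays, and for members given with a difference the arrays whose omission ended the call are named beside it. Where the mean over all probe sets of a called gene moved its difference by more than 1.5 times, that value follows at its first mention, as a difference over all probe sets. An unadjusted p under 0.05 was found in 3961 of the 15498 genes (25.6%), the share against which such counts are given below.

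**Figure D1:**
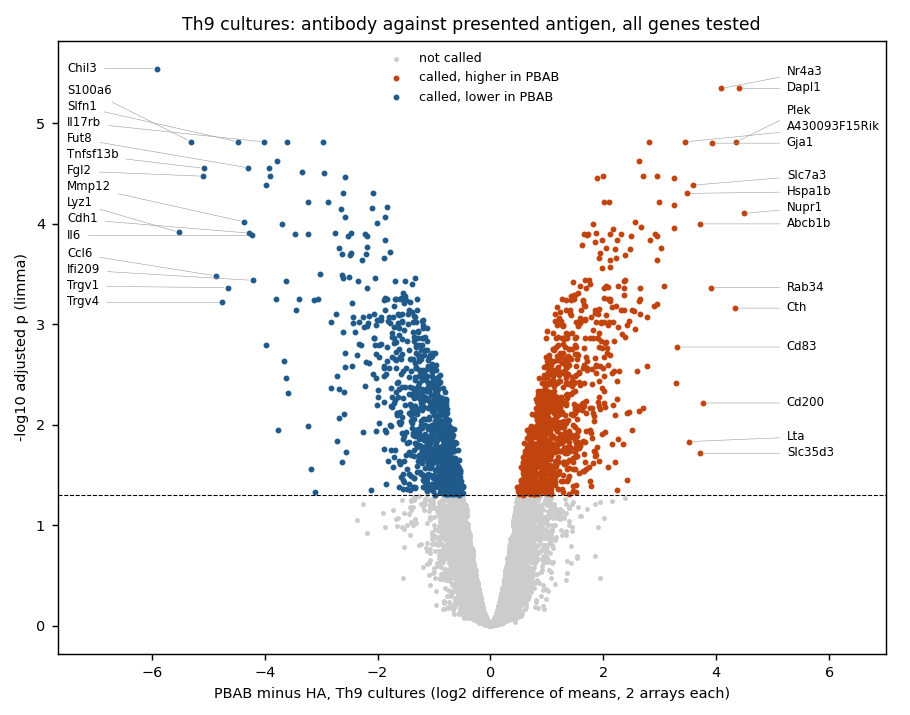
Each point is a gene tested in Th9 cultures, with the log2 difference PBAB minus HA (2 arrays each) on the horizontal axis and the negative log10 of the limma adjusted p on the vertical axis. Orange points (1146) were called higher and blue points (980) called lower in PBAB, the dashed line marks an adjusted p of 0.05, and the 15 largest differences each way are named, from Chil3 on the left to Nupr1 on the right.

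The largest increase was that of Nupr1, a chromatin-associated stress protein, which had signals of 10.44 and 10.46 in PBAB cultures, against 6.26 and 5.64 in HA cultures, a difference of 4.50 ± 0.38 (adjusted p = 7.9e-05). Dapl1, a gene described in naive and memory T cells, had 10.46 and 10.13 in PBAB cultures, against 5.85 and 5.95 in HA cultures (4.39 ± 0.21, adjusted p = 4.5e-06). Plek, which encodes the protein kinase C substrate pleckstrin, had 10.02 and 10.01 in PBAB cultures, against 6.08 and 5.24 in HA cultures (4.35 ± 0.26, adjusted p = 1.53e-05). In these 3 genes both PBAB arrays lay above both HA arrays by more than 3 log2 units. Cth, the cystathionine gamma-lyase that makes cysteine, was higher by 4.33 ± 0.53. Nr4a3, an orphan nuclear receptor induced by T cell receptor signals, was 17.1-fold higher (4.09 ± 0.19, 1.45 over all probe sets). Gja1 (connexin 43, 3.93 ± 0.25), the small GTPase gene Rab34 (3.91 ± 0.44), the drug efflux pump Abcb1b (3.71 ± 0.32, 2.13 over all probe sets), the arginine transporter Slc7a3 (3.59 ± 0.27) and the heat shock gene Hspa1b (3.48 ± 0.27) followed. Cd83 (3.31 ± 0.48) and A430093F15Rik (3.44 ± 0.21), a transcript with no role given here, also belonged to the 15 largest increases. Of the remaining 3, Cd200, a ligand that dampens myeloid cells, was higher by 3.77 ± 0.70 and was not called without PBAB 1 or HA 2 (adjusted p = 0.0525 to 0.0536). Lta, which encodes lymphotoxin alpha, was higher by 3.51 ± 0.79 and was not called without PBAB 1, HA 1 or HA 2 (adjusted p = 0.0649 to 0.111). Slc35d3 was higher by 3.72 ± 0.89 and was not called without PBAB 1, PBAB 2 or HA 2 (adjusted p = 0.0705 to 0.146), with HA 1 at 6.38 and HA 2 at 3.85.

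The largest decrease was that of Chil3 (Ym1), a secreted protein of alternatively activated macrophages, which had signals of 3.02 and 3.33 in PBAB cultures, against 9.11 and 9.07 in HA cultures and 13.79 in APC alone (-5.91 ± 0.24, adjusted p = 2.86e-06). Lyz1, a lysozyme gene, had 3.79 and 4.07 in PBAB cultures, against 9.93 and 8.97 in HA cultures and 14.09 in APC alone (-5.52 ± 0.50, -3.60 over all probe sets, adjusted p = 0.000122). The chemokine gene Ccl6 and the macrophage elastase Mmp12 followed the same order of arrays, with 13.75 and 10.92 in APC alone and differences of -4.86 ± 0.52 and -4.36 ± 0.38. In the other 11 of the 15 the APC alone array lay below both HA arrays. S100a6, a calcium-binding protein, had 4.05 and 5.19 in PBAB cultures, against 10.07 and 9.77 in HA cultures, and 5.10 in APC alone (-5.30 ± 0.32, adjusted p = 1.53e-05). Fgl2, a fibrinogen-like protein that T cells can secrete, had 4.55 and 4.39 in PBAB cultures, against 9.61 and 9.52 in HA cultures, and 4.75 in APC alone (-5.09 ± 0.37). Tnfsf13b (BAFF, a survival factor of B cells) had 5.24 and 6.11 in PBAB cultures, against 10.75 and 10.77 in HA cultures (-5.08 ± 0.35, -2.49 over all probe sets). For these 3 genes the HA arrays lay more than 4 log2 units above APC alone, and the PBAB arrays lay within 1.1 of it. The gamma chain variable segments Trgv4 (-4.75 ± 0.57) and Trgv1 (-4.66 ± 0.52) were lower, as was Slfn1, a schlafen gene of quiescent lymphocytes (-4.47 ± 0.28, -2.32 over all probe sets). The same held for Fut8, the core fucosyltransferase (-4.29 ± 0.29, -1.61 over all probe sets), Cdh1, which encodes E-cadherin (-4.27 ± 0.39), the interferon-inducible Ifi209 (-4.21 ± 0.46), Il6 (-4.22 ± 0.39) and Il17rb (-4.01 ± 0.24). In 206 of all called genes the mean of the lower group was under 5.07, the threshold below which signals were treated as low, and for these the size of a difference is uncertain. Among the 15 largest decreases this held for Chil3, Lyz1, S100a6, Fgl2, Ccl6, Trgv4, Mmp12, Fut8, Cdh1, Il6 and Ifi209.

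The T cell label was checked against marker genes. Cd3e, a signalling chain of the receptor complex, had 10.85 and 10.79 in PBAB cultures, against 11.65 and 10.91 in HA cultures, with 9.16 in APC alone, and was not called (-0.46, adjusted p = 0.513). Cd4, the coreceptor that the cells were selected for, had 10.36 and 10.18 in PBAB cultures, against 9.80 and 9.43 in HA cultures, with 9.51 in APC alone (0.65 ± 0.30, adjusted p = 0.207), and was called with the replicate block (adjusted p = 0.0101). Ptprc (CD45), a marker of all leukocytes, had 12.60 and 12.63 in PBAB cultures, against 12.63 and 12.44 in HA cultures, with 9.45 in APC alone (adjusted p = 0.855). Cd3e and Ptprc lay above APC alone in all 4 arrays, whereas Cd4 in HA 2 lay below it. Of 14 tested genes of T cell identity, 3 were higher and 1 lower (median 0.12), against 7.39% and 6.32% of all genes. Cd5, an inhibitor of receptor signalling whose level follows signal strength, rose to 10.80 and 10.07 in PBAB, against 7.66 and 7.06 in HA (3.07 ± 0.34, adjusted p = 0.000416). Its relative Cd6 rose by 2.12 ± 0.22 and the adhesion receptor Cd2 by 1.13 ± 0.17. The adaptor gene Skap1 was lower (-0.67 ± 0.16), and was not called without PBAB 1, PBAB 2 or HA 1, with the Th9 arrays fitted alone or with the mean of all its probe sets (adjusted p = 0.0842 to 0.12).

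Of the cytokines for which Th9 and the related Th2 cells are known, Il5, Il13 and Il4 were called higher and Il10 lower in PBAB, while Il9 was not called. Il9 had 8.31 and 5.33 in PBAB cultures, against 5.39 and 6.29 in HA cultures, and 6.41 in APC alone. Its signal exceeded APC alone in PBAB 1 only, so the Th9 name used here is that of the culture labels. PBAB 1 alone stood above the other arrays, PBAB 2 was the lowest of the 4, and the gene was not called (0.98 ± 0.80, adjusted p = 0.546). Without PBAB 2 the difference was 2.47 and passed the threshold (adjusted p = 0.0381). Il5, the eosinophil growth factor, had 8.59 and 8.49 in PBAB cultures, against 5.37 and 5.20 in HA cultures (3.26 ± 0.24, adjusted p = 3.54e-05). The PBAB signal was thus 9.55-fold that of HA, whose arrays lay below APC alone (5.67). Il13, a cytokine of mucus production and airway reactivity, had 9.98 and 8.88 in PBAB cultures, against 7.82 and 7.38 in HA cultures (1.83 ± 0.36, adjusted p = 0.0082), and was not called without PBAB 1 or HA 2 (adjusted p = 0.0601 to 0.0656). Il4 had 8.58 and 8.69 in PBAB cultures, against 8.07 and 7.77 in HA cultures (0.72 ± 0.18, adjusted p = 0.0218), without overlap, and was not called without PBAB 1, PBAB 2 or HA 2 or with the Th9 arrays fitted alone (adjusted p = 0.0775 to 0.148). Il10, a cytokine that restrains inflammation, had 7.42 and 8.02 in PBAB cultures, against 11.33 and 9.56 in HA cultures (-2.73 ± 0.61, adjusted p = 0.0146). HA 1 was the highest and both HA arrays exceeded both PBAB arrays, yet the gene was not called without PBAB 1 or HA 1 (adjusted p = 0.0952 to 0.096). Il21 had 6.89 and 6.05 in PBAB cultures, against 5.72 and 5.23 in HA cultures and was called with the replicate block but not without it (0.99, adjusted p = 0.134, and adjusted p = 0.00294 with the block).

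**Figure D2:**
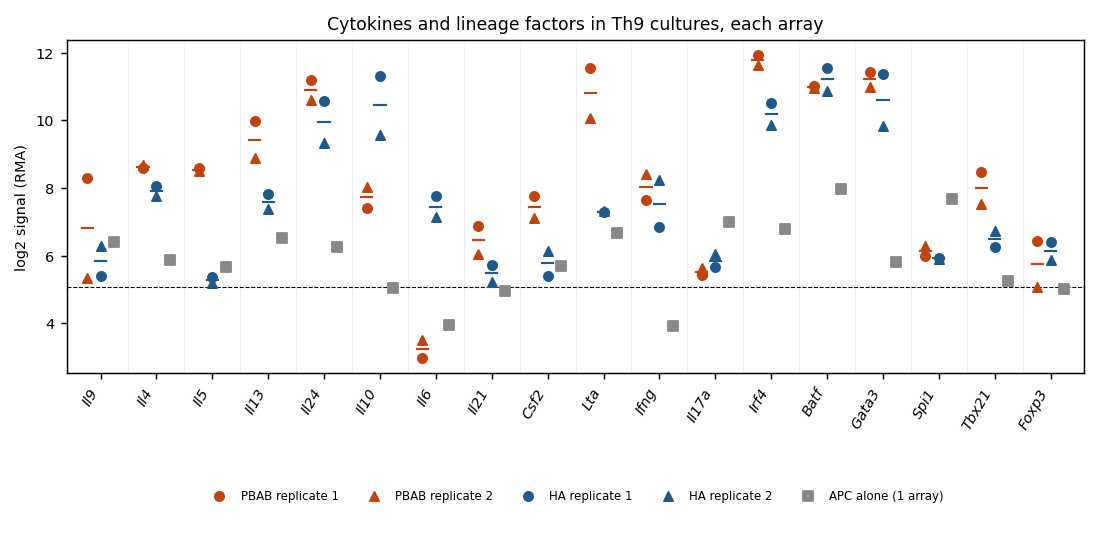
Points give the log2 signal (vertical axis) of each Th9 array for 18 cytokine and transcription factor genes, PBAB arrays in orange left of HA arrays in blue and the APC alone array in grey, with short lines at group means and a dashed line at 5.07. Il5 lies near 8.5 in PBAB and 5.3 in HA, Il9 lies above the rest only in PBAB 1 (8.31), and Irf4 is above 11 in PBAB and near 10 in HA.

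The transcription factors of the Th9 programme moved less evenly. Irf4, which binds the Il9 promoter after receptor signals, had 11.93 and 11.65 in PBAB cultures, against 10.53 and 9.87 in HA cultures (1.59 ± 0.36, adjusted p = 0.0162) and was not called without PBAB 1, PBAB 2 or HA 2 (adjusted p = 0.0521 to 0.12). Its partner Batf had 11.03 and 10.97 in PBAB cultures, against 11.55 and 10.87 in HA cultures (adjusted p = 0.642). Spi1 (PU.1) had 6.0 and 6.27 in PBAB cultures, against 5.94 and 5.91 in HA cultures, with 7.67 in APC alone (adjusted p = 0.562), and so lay below APC alone in all 4 arrays. Gata3 had 11.44 and 10.99 in PBAB cultures, against 11.38 and 9.84 in HA cultures (0.60 ± 0.40, adjusted p = 0.428), and only HA 2 stood below the others, so that without HA 1 it was called higher (1.37, adjusted p = 0.0175). Of 28 genes of the Th9 list, 5 were higher and 5 lower (median 0.35), against 7.39% and 6.32% of all genes. With the replicate block 8 were higher and 6 lower. The higher members included Bhlhe40, a repressor that permits cytokine production, at 12.07 and 11.95 in PBAB cultures, against 10.22 and 9.83 in HA cultures (1.98 ± 0.29, adjusted p = 0.00174). The other 3, Stat5b (0.70, 1.10 over all probe sets), Etv5 (1.79, 1.02 over all probe sets) and Tnfrsf4 (OX40, 1.07), were named after their values were seen. Stat5b was not called without PBAB 1, PBAB 2 or HA 2, with the Th9 arrays fitted alone or with array weights (adjusted p = 0.0657 to 0.292), Etv5 was not called without PBAB 1 or HA 2, with the Th9 arrays fitted alone, with array weights or with the mean of all its probe sets (adjusted p = 0.0581 to 0.266), and Tnfrsf4 was not called without PBAB 1, PBAB 2 or HA 2 (adjusted p = 0.06 to 0.11). Leaving out PBAB 1, PBAB 2, HA 1 or HA 2 gave 1, 3, 8 and 1 called higher and 1, 4, 1 and 3 called lower in this list. The lower members included Il17rb, the receptor for IL-25 on type 2 cells, at 5.63 and 6.04 in PBAB cultures, against 10.04 and 9.65 in HA cultures (-4.01 ± 0.24, adjusted p = 1.53e-05). Beside Il10 they were Tgfbr2 (-0.91, -0.14 over all probe sets), a receptor of TGF-beta named after its values were seen, and the chemokine genes Ccl17 (-1.15) and Ccl22 (-1.35). Tgfbr2 was not called without any 1 of the 4 arrays or with the mean of all its probe sets (adjusted p = 0.0713 to 0.677). Ccl17 was not called without PBAB 1, HA 1 or HA 2, with the Th9 arrays fitted alone or with array weights (adjusted p = 0.0517 to 0.227), and Ccl22 was not called without PBAB 1 or HA 1 (adjusted p = 0.0527 to 0.0633). Both chemokine genes were marked by APC alone, at 6.98 and 6.90. Of 17 type 2 genes, 4 were higher and 4 lower (median 0.18). Epas1 (HIF-2 alpha) had 8.93 and 9.83 in PBAB cultures, against 11.48 and 10.82 in HA cultures (-1.77 ± 0.31, adjusted p = 0.00428). Il6 had 2.96 and 3.49 in PBAB cultures, against 7.77 and 7.13 in HA cultures, and 3.93 in APC alone (-4.22 ± 0.39). Leaving out PBAB 1, PBAB 2, HA 1 or HA 2 gave 1, 2, 5 and 1 higher and 3, 3, 3 and 4 lower. The remaining called members were Dusp4 (higher, 1.33), which was not called without PBAB 1, PBAB 2 or HA 2 (adjusted p = 0.103 to 0.183), and Ecm1 (lower, -2.63), which was not called without PBAB 1, PBAB 2 or HA 1 (adjusted p = 0.0745 to 0.146).

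Genes of other helper lineages changed in both directions. Tbx21 (T-bet), the master regulator of Th1 cells, had 8.48 and 7.53 in PBAB cultures, against 6.27 and 6.71 in HA cultures (1.51 ± 0.43, adjusted p = 0.0398) and was not called without PBAB 1, HA 1 or HA 2 or with array weights (adjusted p = 0.0589 to 0.252). Ifng, the effector cytokine of those cells, had 7.65 and 8.41 in PBAB cultures, against 6.84 and 8.24 in HA cultures and overlapped between activations (adjusted p = 0.636). Il12rb2, the signalling chain of the IL-12 receptor, had 6.76 and 7.31 in PBAB cultures, against 4.75 and 4.42 in HA cultures (2.45 ± 0.32, adjusted p = 0.000931). Its HA arrays lay below 5 and its PBAB arrays did not overlap them. The death ligand Fasl had 9.18 and 9.96 in PBAB cultures, against 6.94 and 7.53 in HA cultures (2.34 ± 0.32), whereas Eomes, a T-box factor of memory and cytotoxic cells, fell to 5.96 and 6.01 in PBAB, against 7.31 and 7.77 in HA (-1.56 ± 0.18). The IL-18 receptor gene Il18r1 fell to 4.69 and 5.26 in PBAB, against 7.04 and 7.30 in HA (-2.19 ± 0.20). Of 15 Th1 genes, 3 were higher and 3 lower (median 0.11), against 7.39% and 6.32% of all genes, the third lower one being Il18rap. Il17a, the cytokine of Th17 cells, had 5.41 and 5.64 in PBAB cultures, against 5.65 and 6.04 in HA cultures (adjusted p = 0.621). Of 11 Th17 genes, 2 were higher and 4 lower (median -0.22), and with the block 4 were higher. Without PBAB 1, PBAB 2, HA 1 or HA 2 the higher members numbered 0, 3, 2 and 0. Among the lower ones were, beside Rora (-1.21, not called without PBAB 1, PBAB 2 or HA 1 (adjusted p = 0.0747 to 0.119)), the linked membrane protein genes Tmem176a (-2.68 ± 0.26) and Tmem176b (-2.40 ± 0.33) and the interleukin 1 receptor gene Il1r1 (-1.78 ± 0.23, -0.99 over all probe sets), with no overlap in any of these 3. Il6ra was higher (1.26 ± 0.26, 0.77 over all probe sets) and was not called without PBAB 1 or HA 2 (adjusted p = 0.0603 to 0.0814). Ccr6, the other higher member, named after its values were seen, rose by 1.40 and was not called without PBAB 1, HA 1 or HA 2 (adjusted p = 0.0528 to 0.0881). Foxp3, the factor of regulatory T cells, had 6.44 and 5.06 in PBAB cultures, against 6.39 and 5.86 in HA cultures (adjusted p = 0.701). Of 14 genes of regulatory T cells, 5 were higher and 1 lower (median 0.38). The folate receptor family gene Izumo1r rose to 10.62 and 10.12 in PBAB, against 8.50 and 8.16 in HA (2.04 ± 0.23), and Tnfrsf18 (GITR) by 1.29 ± 0.21. Ikzf2 (1.92) and Ctla4 (0.74) were the remaining higher members and Itgae the lower one, and Ctla4 was not called without any 1 of the 4 arrays or with the Th9 arrays fitted alone (adjusted p = 0.0572 to 0.113). Il2ra (CD25) was higher with the probe set used (1.42 ± 0.25, 0.32 over all probe sets), while its other probe set differed by -0.79, and the gene was not called with the mean of all its probe sets (adjusted p = 0.559).

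Genes that follow T cell receptor signals were among the called increases at day 4. Of 26 early genes induced by the T cell receptor, 10 were higher and 0 lower (median 1.01), against 7.39% and 6.32% of all genes. Of the 26, 13 passed an unadjusted p under 0.05, against 25.6% of all genes tested. Nr4a3 had 10.70 and 10.93 in PBAB cultures, against 6.76 and 6.68 in HA cultures, and 6.99 in APC alone. Nr4a2 had 7.58 and 8.56 in PBAB cultures, against 4.68 and 5.55 in HA cultures, with 7.53 in APC alone (2.96 ± 0.36, 1.77 over all probe sets, adjusted p = 0.00063). Nr4a1, named after its values were seen, had 10.97 and 11.03 in PBAB cultures, against 8.81 and 7.78 in HA cultures (2.70 ± 0.52, adjusted p = 0.00688), and was not called without HA 2 (adjusted p = 0.0614). All 3 belong to a family of orphan nuclear receptors that follow recent receptor signals and limit T cell responses. They had no overlap between activations, which was true of every called gene. Cd83 had 11.23 and 11.21 in PBAB cultures, against 8.40 and 7.43 in HA cultures (3.31 ± 0.48, adjusted p = 0.00169), and Rel, the NF-kappaB subunit c-Rel, had 7.72 and 7.85 in PBAB cultures, against 6.45 and 6.04 in HA cultures (1.54 ± 0.23, adjusted p = 0.00197). The differences of Egr1 (0.92), Egr2 (1.55), Egr3 (-0.16), Fos (0.89) and Myc (1.44) did not pass the test, and 16 members in all were not called. Leaving out PBAB 1, PBAB 2, HA 1 or HA 2 gave 6, 6, 11 and 5 called members. Of 22 genes of proximal receptor signalling, 3 were higher and 2 lower (median 0.09). The 3 higher ones restrain the signal. Beside Cd5 they were Ptpn6 (the phosphatase SHP-1) at 10.85 and 10.57 in PBAB cultures, against 9.55 and 9.08 in HA cultures (1.40 ± 0.22, adjusted p = 0.00253) and the ubiquitin ligase gene Cblb at 9.81 and 9.84 in PBAB cultures, against 8.39 and 8.11 in HA cultures (1.58 ± 0.26, adjusted p = 0.00299), which was not called with the mean of all its probe sets (adjusted p = 0.053). Rasgrp1, an activator of Ras downstream of the receptor, was lower (-0.76 ± 0.18), and was not called without PBAB 1, HA 1 or HA 2 or with the Th9 arrays fitted alone (adjusted p = 0.0729 to 0.147). Themis, the other lower member (-0.89), was not called without PBAB 1, PBAB 2 or HA 1 or with the Th9 arrays fitted alone (adjusted p = 0.102 to 0.221). The lower members numbered 0, 1, 0 and 1 without PBAB 1, PBAB 2, HA 1 or HA 2, and 4 with the replicate block.

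Of 12 genes of inhibitory receptors, which include their partner ligand and a regulator, 6 were higher and 1 lower (median 0.39). The shares of all genes were 7.39% and 6.32%. Btla, an inhibitory receptor for HVEM, had 10.06 and 9.64 in PBAB cultures, against 7.06 and 6.66 in HA cultures (2.99 ± 0.24, adjusted p = 6.06e-05). Tox, a nuclear factor of chronically stimulated T cells, had 7.65 and 6.77 in PBAB cultures, against 5.29 and 5.05 in HA cultures (2.04 ± 0.29, adjusted p = 0.00151). Pdcd1 (PD-1) had 8.44 and 8.40 in PBAB cultures, against 7.48 and 6.89 in HA cultures (1.23 ± 0.24, adjusted p = 0.00767), and was not called without HA 2 (adjusted p = 0.0639). Cd200 rose to 10.60 and 9.08 in PBAB, against 6.48 and 5.67 in HA, while the receptor for it, Cd200r1, fell to 4.88 and 5.18 in PBAB, against 7.47 and 7.59 in HA (-2.50 ± 0.27, adjusted p = 0.000343). No array of either activation overlapped the other in these 5 genes, as in every called gene. Without PBAB 1, PBAB 2, HA 1 or HA 2 the higher members numbered 3, 4, 5 and 2. With the replicate block 3 of the 12 were lower. Of 23 costimulatory receptors and ligands, 5 were higher and 4 lower (median 0.20). Pdcd1lg2 (PD-L2) rose by 1.67 ± 0.22. Icos, a costimulatory receptor of effector and follicular T cells, had 9.40 and 9.32 in PBAB cultures, against 12.22 and 11.77 in HA cultures (-2.64 ± 0.26, adjusted p = 0.000199). Cd48, a ligand of CD2 family receptors, had 9.96 and 10.02 in PBAB cultures, against 11.80 and 11.95 in HA cultures (-1.89 ± 0.19, adjusted p = 0.000221). Of 11 follicular helper genes, 3 were higher and 3 lower, with Slamf6 at -2.46 ± 0.30. Pdcd1, Btla and Sh2d1a (1.30, not called without PBAB 1 or HA 2 or with the Th9 arrays fitted alone (adjusted p = 0.0701 to 0.105)) were the higher ones, and 2, 3, 3 and 1 were higher and 2, 4, 2 and 4 lower without PBAB 1, PBAB 2, HA 1 or HA 2.

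Targets of the cytokines in the medium were counted next. Of 13 genes of the IL-4 and STAT6 list, 0 were higher and 4 lower (median -0.84), against 7.39% and 6.32% of all genes. An unadjusted p under 0.05 was reached by 7 (25.6% of all genes). The 4 were Arg1, Cd200r1, Ccl17 and Ccl22, and Arg1, the arginase of alternatively activated macrophages, had 4.25 and 4.22 in PBAB cultures, against 8.94 and 6.76 in HA cultures and 12.39 in APC alone (-3.61 ± 0.60, adjusted p = 0.00343). Cd200r1 was the only one of the 4 not marked by APC alone, and 1 was higher and 7 lower with the replicate block, and 3, 4, 2 and 3 were lower without PBAB 1, PBAB 2, HA 1 or HA 2. Of 17 genes of the TGF-beta list, 2 were higher and 3 lower (median -0.11), and 6 were lower with the block. Itgae (CD103), an integrin chain that TGF-beta induces, had 7.09 and 8.15 in PBAB cultures, against 11.16 and 11.47 in HA cultures (-3.69 ± 0.32, adjusted p = 9.95e-05). Id2, an inhibitor of helix-loop-helix factors, had 10.44 and 10.64 in PBAB cultures, against 12.48 and 12.38 in HA cultures (-1.89 ± 0.30, adjusted p = 0.00261). Tgif1, a corepressor of SMAD proteins, rose to 8.53 and 8.11 in PBAB, against 6.60 and 6.33 in HA (1.86 ± 0.23). Bambi, a decoy receptor of TGF-beta, rose by 0.96 ± 0.21 and was not called without PBAB 2 or HA 2 or with the Th9 arrays fitted alone (adjusted p = 0.0716 to 0.0994). The higher members of this list numbered 2, 1, 2 and 1 without PBAB 1, PBAB 2, HA 1 or HA 2. Of 19 genes of the IL-2 and STAT5 list, 5 were higher and 0 lower (median 0.41), 8 and 3 with the replicate block, and 1, 3, 3 and 2 were higher without PBAB 1, PBAB 2, HA 1 or HA 2. Il2 itself had 4.29 and 4.69 in PBAB cultures, against 4.13 and 4.75 in HA cultures (adjusted p = 0.953), all under 5. Pim1, a survival kinase, rose by 0.83 ± 0.19 and was not called without any 1 of the 4 arrays or with the Th9 arrays fitted alone (adjusted p = 0.0504 to 0.097). Ccnd2 rose by 0.70 ± 0.16 and was not called without PBAB 1 or HA 1, with the Th9 arrays fitted alone or with the mean of all its probe sets (adjusted p = 0.0601 to 0.0989).

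More homing receptors were called lower than higher. Of 27 trafficking receptors, 3 were higher and 9 lower (median -0.09), against 7.39% and 6.32% of all genes. With the replicate block 6 were higher. Beside Ccr6 the higher ones were Ccr7 (1.08) and Itgav (0.72, 0.24 over all probe sets). Ccr7 was not called without PBAB 1, PBAB 2 or HA 2 or with the Th9 arrays fitted alone (adjusted p = 0.062 to 0.246), and Itgav was not called without any 1 of the 4 arrays, with the Th9 arrays fitted alone, with array weights or with the mean of all its probe sets (adjusted p = 0.0539 to 0.247). The 3 higher ones numbered 0, 1, 2 and 0 without PBAB 1, PBAB 2, HA 1 or HA 2, and the 9 lower ones 7 in each case. Gpr15, a receptor for homing to the large intestine, had 4.74 and 4.58 in PBAB cultures, against 7.89 and 8.11 in HA cultures (-3.34 ± 0.23, adjusted p = 3.04e-05). Itga4, the integrin chain alpha 4, had 7.0 and 7.16 in PBAB cultures, against 10.04 and 9.42 in HA cultures (-2.65 ± 0.22, adjusted p = 7.07e-05). Itgb7, an integrin chain that pairs with Itgae, was also lower (-1.71, named after its values were seen). The chemokine receptor Ccr1 had 4.84 and 4.61 in PBAB cultures, against 6.97 and 6.91 in HA cultures (-2.22 ± 0.20, -1.23 over all probe sets, adjusted p = 0.000127), and 8.98 in APC alone, the one of the 9 that this array marked. In each of these genes the PBAB arrays lay below the HA arrays, as in every gene called lower. Of 18 genes of naive or quiescent T cells, 4 were higher and 3 lower (median -0.05). Dapl1 showed the largest difference, and the higher members numbered 2, 3, 4 and 1 without PBAB 1, PBAB 2, HA 1 or HA 2. Foxp1, a factor that keeps T cells quiescent, rose by 1.14 ± 0.22 and was not called without HA 2 (adjusted p = 0.0656). Klf2, which drives expression of lymph node homing receptors, fell to 6.63 and 6.76 in PBAB, against 9.27 and 8.43 in HA (-2.16 ± 0.29, adjusted p = 0.000971), and Slfn2 was lower too (-1.60 ± 0.24).

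Among 20 inflammatory cytokines, 2 were higher and 3 lower, against 7.39% and 6.32% of all genes. Csf2 (GM-CSF) had 7.76 and 7.11 in PBAB cultures, against 5.41 and 6.14 in HA cultures (1.66 ± 0.40, adjusted p = 0.0194), without overlap, and was not called without PBAB 1 or HA 1 (adjusted p = 0.127 to 0.136). Lta had 11.55 and 10.09 in PBAB cultures, against 7.28 and 7.33 in HA cultures, both PBAB arrays being above the HA arrays by more than 2, and was not called without PBAB 1, HA 1 or HA 2 (adjusted p = 0.0649 to 0.111). The lower members numbered 1, 2, 1 and 3 and the higher ones 0, 2, 0 and 1 without PBAB 1, PBAB 2, HA 1 or HA 2. Beside Il6 the lower ones included Penk (-1.37), which was not called without PBAB 1, PBAB 2 or HA 1 or with array weights (adjusted p = 0.0583 to 0.236). Il1b had 5.37 and 5.89 in PBAB cultures, against 6.85 and 6.33 in HA cultures (-0.96 ± 0.23), was marked by APC alone (7.19), and was not called without PBAB 1 or HA 1 or with the Th9 arrays fitted alone (adjusted p = 0.086 to 0.143). Of 20 chemokine ligands, 1 was higher and 5 lower. All 5 lower ones (Ccl6, Ccl9, Ccl17, Ccl22 and Ccl24) were marked by APC alone. The lower ligands numbered 3, 5, 3 and 4 without PBAB 1, PBAB 2, HA 1 or HA 2. The higher one, Ccl4 (1.30), was not called without any 1 of the 4 arrays (adjusted p = 0.0532 to 0.141). Ccl9, which attracts myeloid cells, had 4.53 and 4.55 in PBAB cultures, against 8.81 and 8.14 in HA cultures and 10.86 in APC alone (-3.93 ± 0.27, adjusted p = 2.81e-05), and the eosinophil attractant Ccl24 had 5.9 and 6.35 in PBAB cultures, against 8.96 and 8.44 in HA cultures and 10.11 in APC alone (-2.57 ± 0.22, adjusted p = 8.55e-05).

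The stress programme of ATF4 had the highest share of higher members among the 48 lists. The lists share members and were chosen with earlier results of these data known, so this rank is only a description. ATF4 is the factor translated when the kinases PERK or GCN2 slow protein synthesis, for example when amino acids run short, and with its partner CHOP (gene Ddit3) it drives amino acid uptake and synthesis. Of 23 genes of the ATF4 and CHOP list, 15 were higher and 0 lower (median 1.29), against 7.39% of all genes called higher. The counts were 11, 11, 13 and 11 without PBAB 1, PBAB 2, HA 1 or HA 2. Ddit3 had 10.55 and 11.13 in PBAB cultures, against 8.26 and 8.14 in HA cultures (2.64 ± 0.30, adjusted p = 0.000432). Atf5, another factor of this response, had 9.08 and 8.98 in PBAB cultures, against 7.0 and 6.61 in HA cultures (2.22 ± 0.22, adjusted p = 0.000218). Cth had 9.89 and 9.55 in PBAB cultures, against 5.92 and 4.86 in HA cultures. Every PBAB array of these 3 genes exceeded every HA array by more than 1. Of 30 genes of amino acid transport, serine synthesis, one-carbon metabolism and transfer RNA charging, 13 were higher and 0 lower (median 0.88), and 22 were higher with the replicate block. Slc7a3 had 9.03 and 8.88 in PBAB cultures, against 5.31 and 5.42 in HA cultures (adjusted p = 4.13e-05). The glycine transporter gene Slc6a9 had 8.74 and 8.37 in PBAB cultures, against 6.60 and 6.80 in HA cultures (1.85 ± 0.23, 1.14 over all probe sets). The arginine transporter gene Slc7a1 had 10.65 and 10.43 in PBAB cultures, against 9.45 and 9.25 in HA cultures (1.19 ± 0.17, 0.78 over all probe sets). Aldh1l2, a mitochondrial enzyme of folate metabolism, had 7.63 and 7.17 in PBAB cultures, against 4.87 and 4.64 in HA cultures (2.65 ± 0.33). Without PBAB 1 or HA 2 the count was 7 in each case, without PBAB 2 it was 11 and without HA 1 it was 13.

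To set the sequences of these genes beside their values, promoter windows from 250 bases before to 50 bases after the gene start (RefSeq, GRCm38.p6) were searched on both strands for short motifs. The C/EBP-ATF response element (letters TGATGNAA) was present in 9 of 21 ATF4 list members with a window (42.9%) and in 6 of 22 of the amino acid list (27.3%), against 4.51% of 27025 genes. Among ATF4 list members it was present in 5 of 13 called and 4 of 8 not called. The heat shock element core (GAANNTTC) was present in 10 of 16 chaperone genes (62.5%), against 9.04% of genes, and in 3 of 5 called and 7 of 11 not called. The core of the interferon-stimulated response element (GAAANNGAA) was present in 11 of 19 type I interferon-stimulated genes (57.9%), in 7 of 8 genes of interferon-inducible GTPases (87.5%) and in 5 of 9 genes of the schlafen and p200 families (55.6%), against 9.76% of genes. In the same order, it was present in 6 of 12, 4 of 5 and 2 of 5 called members. Among members not called the counts were 5 of 7, 3 of 3 and 3 of 4. A match is a description of these letters and not evidence of binding. Windows of Ddit3, Atf5, Sesn2, Ifit2, Xaf1, Slfn1 and Isg20, which were called, held no match to the motif of their list. The 250 bases before the start of 5 genes that show matches are printed for the stress genes that were higher and the interferon genes that were lower, chosen after their values were seen. Sequences run 5′ to 3′ on the strand of the gene, and capitals mark the motif in either orientation.
Nupr1: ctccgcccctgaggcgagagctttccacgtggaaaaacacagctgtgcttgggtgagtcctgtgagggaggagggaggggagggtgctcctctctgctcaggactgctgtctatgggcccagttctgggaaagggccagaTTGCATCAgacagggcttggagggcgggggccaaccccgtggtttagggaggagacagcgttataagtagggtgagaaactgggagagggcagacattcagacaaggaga
Asns: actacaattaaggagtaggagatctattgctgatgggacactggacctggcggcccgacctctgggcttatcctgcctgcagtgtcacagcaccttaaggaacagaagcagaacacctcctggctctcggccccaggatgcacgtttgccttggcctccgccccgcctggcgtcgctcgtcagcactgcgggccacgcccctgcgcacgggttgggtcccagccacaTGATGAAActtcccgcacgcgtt
Hspa1b: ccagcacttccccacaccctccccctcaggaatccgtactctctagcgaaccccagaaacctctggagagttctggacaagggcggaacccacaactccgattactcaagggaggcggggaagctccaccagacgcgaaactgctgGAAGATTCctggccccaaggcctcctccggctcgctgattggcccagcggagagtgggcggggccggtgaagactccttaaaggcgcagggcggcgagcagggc
Gbp7: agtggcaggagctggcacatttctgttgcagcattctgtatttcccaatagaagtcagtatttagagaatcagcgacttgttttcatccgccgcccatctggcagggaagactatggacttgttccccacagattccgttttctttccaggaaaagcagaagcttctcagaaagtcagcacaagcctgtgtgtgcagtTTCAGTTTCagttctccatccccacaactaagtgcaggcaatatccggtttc
Irgm1: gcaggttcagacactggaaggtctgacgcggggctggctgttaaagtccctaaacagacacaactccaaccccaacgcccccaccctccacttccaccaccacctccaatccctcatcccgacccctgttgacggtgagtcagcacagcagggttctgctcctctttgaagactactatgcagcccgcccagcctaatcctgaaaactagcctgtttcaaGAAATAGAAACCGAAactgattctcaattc
The windows lay at chr7:126625471-126625720, minus strand (Nupr1), chr6:7693210-7693459, minus strand (Asns), chr17:34959239-34959488, minus strand (Hspa1b), chr3:142530086-142530335, plus strand (Gbp7) and chr11:48871421-48871670, minus strand (Irgm1). The first base of the match lay at position -110 from the start in Nupr1, -23 in Asns, -104 in Hspa1b and -52 in Gbp7, and Irgm1 held 2 overlapping matches at -30 and -24. Asns, the asparagine synthetase, was higher by 2.77 ± 0.35 (adjusted p = 0.000855), with 11.13 and 10.85 in PBAB cultures, against 8.74 and 7.71 in HA cultures.

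Of 20 heat shock and chaperone genes, 5 were higher and 1 lower (median 0.20), against 7.39% and 6.32% of all genes. Hspa1b, a cytosolic chaperone of stressed cells, had 8.40 and 7.99 in PBAB cultures, against 4.60 and 4.84 in HA cultures (adjusted p = 4.99e-05). Its near-identical copy Hspa1a had 6.41 and 5.25 in PBAB cultures, against 3.31 and 3.22 in HA cultures (2.56 ± 0.35), and signals of the 2 copies cannot be told apart with certainty. Hspe1, a mitochondrial chaperonin, had 12.50 and 12.72 in PBAB cultures, against 11.46 and 11.69 in HA cultures (1.04 ± 0.16), and Hspa4l was higher (1.43 ± 0.22, 0.77 over all probe sets). Ahsa1, a cochaperone of HSP90 and the lower member (-0.55, about 0 over all probe sets), was not called without any 1 of the 4 arrays, with the Th9 arrays fitted alone, with array weights or with the mean of all its probe sets (adjusted p = 0.0736 to 0.994). The constitutive Hspa8 (0.13) and the heat-inducible Hsp90aa1 (-0.21) and Dnajb1 (-0.05) were not called. Of 23 genes of the unfolded protein response, which serves folding in the endoplasmic reticulum, 0 were higher and 6 lower (median -0.33), and 10 passed an unadjusted p under 0.05, against 25.6% of all genes. Sdf2l1 had 9.65 and 9.30 in PBAB cultures, against 10.82 and 10.61 in HA cultures (-1.24 ± 0.20, adjusted p = 0.00292). The disulfide isomerase gene Pdia3 was lower (-1.06 ± 0.23) and was not called without PBAB 1 or HA 2 (adjusted p = 0.0752 to 0.105). Dnajb11 was lower (-0.69 ± 0.15) and was not called without PBAB 1, PBAB 2 or HA 2 or with the Th9 arrays fitted alone (adjusted p = 0.0542 to 0.082), and Creld2 was lower (-1.01 ± 0.25) and was not called without PBAB 1, PBAB 2 or HA 1 (adjusted p = 0.0609 to 0.128). Hspa5 (BiP, 0.11) and Xbp1 (-0.33), central to this response, were not called, and the count of lower members was 1, 2, 3 and 3 without PBAB 1, PBAB 2, HA 1 or HA 2. Of 18 genes of the oxidative stress and NRF2 list, 0 were higher and 3 lower (median -0.32), 6 lower with the block, and 8 passed an unadjusted p under 0.05 (25.6% of all genes). They numbered 1, 0, 0 and 1 without PBAB 1, PBAB 2, HA 1 or HA 2. Gsr was lower (-1.0) and was not called without PBAB 2 or HA 1 (adjusted p = 0.0527 to 0.0661). Gclc (-0.68) was not called without any 1 of the 4 arrays or with the Th9 arrays fitted alone (adjusted p = 0.0537 to 0.153), and Nqo1 (-0.75) was not called without any 1 of the 4 arrays, with the Th9 arrays fitted alone or with array weights (adjusted p = 0.0503 to 0.193).

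Of 23 target genes of p53, the factor that answers DNA damage, 11 were higher and 0 lower (median 0.69), against 7.39% and 6.32% of all genes. Without PBAB 1, PBAB 2, HA 1 or HA 2 the higher ones numbered 9, 8, 10 and 8. Bbc3 (PUMA), which triggers cell death, had 8.84 and 8.29 in PBAB cultures, against 6.56 and 6.41 in HA cultures (2.08 ± 0.23, adjusted p = 0.000422). Perp had 7.40 and 7.49 in PBAB cultures, against 5.83 and 5.59 in HA cultures (1.74 ± 0.16, adjusted p = 0.000127), and Gadd45a, which arrests damaged cells, had 8.02 and 8.24 in PBAB cultures, against 6.38 and 5.94 in HA cultures (1.97 ± 0.21, adjusted p = 0.000277). The arrays of both activations were separate in these 3 genes, as in every called gene. Sesn2, a sestrin that ATF4 also induces, rose by 1.27 ± 0.17. Cdkn1a (p21), an inhibitor of cell division, rose by 1.26 ± 0.30 and was not called without PBAB 2 or HA 2 (adjusted p = 0.116 to 0.13). Mdm2 (0.05), Ccng1 (0.28) and Fas (0.03), other targets of p53, were not called. Of 19 apoptosis regulators, 5 were higher and 2 lower (median 0.16). Pmaip1 (NOXA) rose by 1.92 ± 0.26 and Fasl by 2.34 ± 0.32, and Bik was lower (-1.01 ± 0.20) and not called without PBAB 2 (adjusted p = 0.0609). The lower members of this list numbered 1, 0, 1 and 1 without PBAB 1, PBAB 2, HA 1 or HA 2.

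Many of the genes that interferon induces were lower in PBAB. Of 28 type I interferon-stimulated genes, 0 were higher and 16 lower (median -1.04), against 6.32% of all genes, and 21 passed an unadjusted p under 0.05, against 25.6%. Xaf1, a death-promoting interferon target, had 4.63 and 5.27 in PBAB cultures, against 8.30 and 9.20 in HA cultures, and 5.20 in APC alone (-3.80 ± 0.45, -2.09 over all probe sets, adjusted p = 0.000555). Ddx58 (RIG-I), the sensor of viral RNA, had 6.49 and 6.49 in PBAB cultures, against 8.84 and 8.25 in HA cultures (-2.05 ± 0.22, -1.10 over all probe sets, adjusted p = 0.000343). Ifi27l2a had 9.13 and 8.88 in PBAB cultures, against 11.34 and 10.79 in HA cultures (-2.06 ± 0.26) and Ifit2, which blocks viral translation, had 5.85 and 5.88 in PBAB cultures, against 7.61 and 7.78 in HA cultures (-1.83 ± 0.27). No PBAB array overlapped an HA array in these 4 genes, as in every called gene. Of the 16 called members, 15 were not marked by APC alone. The count was 8, 10, 10 and 9 without PBAB 1, PBAB 2, HA 1 or HA 2. Mx1 (-0.29), Rsad2 (-0.10), Usp18 (-0.05) and Bst2 (0.53) belonged to the same list and were not called. Of 11 interferon-inducible GTPases, which attack the vacuoles of pathogens, 0 were higher and 7 lower (median -1.45), and none of the 7 was marked by APC alone. Gbp8 had 5.84 and 6.43 in PBAB cultures, against 8.69 and 9.67 in HA cultures (-3.05 ± 0.36, adjusted p = 0.000555). Gbp6 had 6.89 and 7.16 in PBAB cultures, against 8.94 and 10.34 in HA cultures (-2.62 ± 0.36) and Gbp7, whose promoter is printed above, had 5.80 and 6.89 in PBAB cultures, against 8.25 and 9.62 in HA cultures (-2.59 ± 0.46, adjusted p = 0.00476). Irgm1, a regulator of this family, had 7.88 and 8.08 in PBAB cultures, against 9.23 and 9.86 in HA cultures (-1.57 ± 0.22, adjusted p = 0.00139). In each of these 4 genes PBAB 1 was the lowest array and HA 2 the highest, and without PBAB 1, PBAB 2, HA 1 or HA 2 the list had 4, 5, 10 and 4 lower members. Guanylate-binding proteins are a family of close copies, and probe sets may read more than 1 of them. Of 10 schlafen and p200 family genes, 0 were higher and 5 lower. Slfn1 had 5.37 and 6.15 in PBAB cultures, against 9.94 and 10.53 in HA cultures (adjusted p = 1.53e-05), Slfn2 had 9.84 and 10.30 in PBAB cultures, against 11.43 and 11.90 in HA cultures (-1.60 ± 0.24) and Ifi209 had 3.99 and 4.21 in PBAB cultures, against 7.67 and 8.97 in HA cultures (adjusted p = 0.000366), and the lower members numbered 3, 5, 5 and 3 without PBAB 1, PBAB 2, HA 1 or HA 2.

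Many genes of DNA replication and some of division were lower in PBAB. Of 29 genes of DNA replication and nucleotide synthesis, 0 were higher and 17 lower (median -0.94), against 7.39% and 6.32% of all genes. Of the 29, 25 passed an unadjusted p under 0.05, against 25.6% of all genes. Rrm2, the regulated subunit of ribonucleotide reductase, had 10.42 and 10.14 in PBAB cultures, against 12.17 and 12.53 in HA cultures (-2.07 ± 0.29, adjusted p = 0.00138). Pola1, which primes DNA synthesis, had 7.76 and 7.48 in PBAB cultures, against 9.25 and 9.26 in HA cultures (-1.64 ± 0.22, -0.84 over all probe sets, adjusted p = 0.000962), and Rrm1 had 9.81 and 9.82 in PBAB cultures, against 10.89 and 11.23 in HA cultures (-1.25 ± 0.19, -0.74 over all probe sets). Fen1, which trims Okazaki fragments, was lower (-1.40 ± 0.23). In these genes both PBAB arrays lay below both HA arrays, as in every gene called lower. The list had 11, 6, 8 and 7 lower members without PBAB 1, PBAB 2, HA 1 or HA 2. Of 27 mitosis genes, 0 were higher and 9 lower (median -0.77), and 18 passed an unadjusted p under 0.05 (25.6% of all genes). With the replicate block 16 were lower, and without PBAB 1, PBAB 2, HA 1 or HA 2 the counts were 3, 1, 3 and 1. Birc5 (survivin) had 9.99 and 10.18 in PBAB cultures, against 11.52 and 12.04 in HA cultures (-1.70 ± 0.31, adjusted p = 0.00569) and was not called without HA 2 (adjusted p = 0.0517). The kinesin gene Kif11 was lower (-0.91 ± 0.20) and was not called without PBAB 2 or HA 2 (adjusted p = 0.0821 to 0.0913). Mki67 (-0.99), the marker of dividing cells, Cdk1 (-0.73) and Top2a (-0.72) were not called. Of 14 cell cycle inhibitors, 1 was higher (Cdkn1a) and 3 lower (median -0.03). Cdkn2c was lower (-1.31 ± 0.24), Rbl1 was lower (-1.32 ± 0.19, -0.28 over all probe sets) and was not called with the mean of all its probe sets (adjusted p = 0.198), and Rbl2 was lower (-1.21 ± 0.30) and was not called without any 1 of the 4 arrays (adjusted p = 0.0538 to 0.137).

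**Figure D3:**
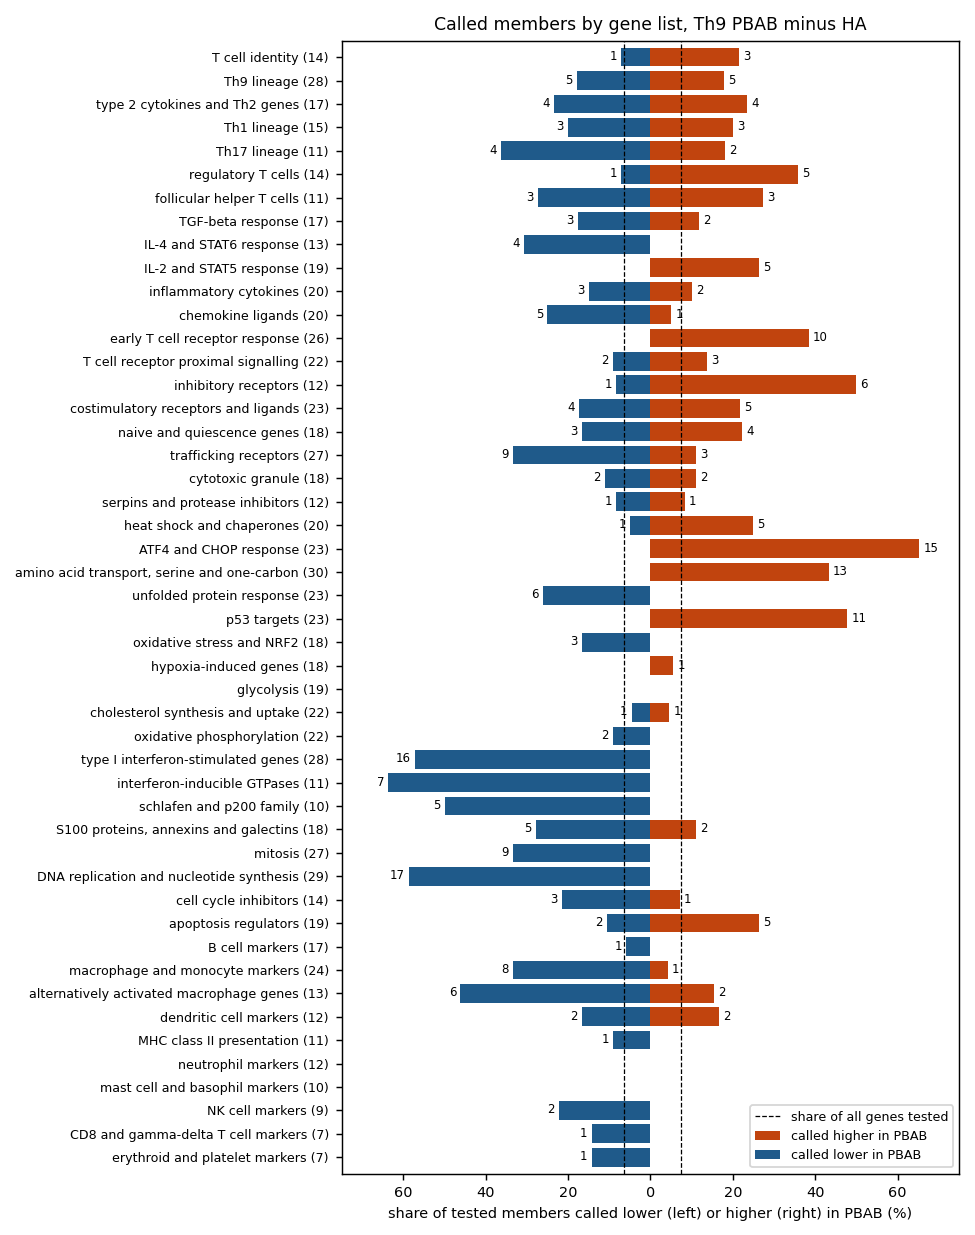
Bars give the share of tested members (number in brackets) of each of 48 gene lists that were called higher (orange, right) or lower (blue, left) in PBAB, with the count at the end of each bar and dashed lines at the shares of all genes tested (7.39% and 6.32%). The ATF4 list has 15 of 23 members to the right and the interferon and replication lists have 16 of 28 and 17 of 29 members to the left.

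Energy metabolism gave few calls, beside shares of 7.39% higher and 6.32% lower among all genes. Of 19 glycolysis genes, 0 were called by limma (median 0.07), 4 passed an unadjusted p under 0.05 (21.1%, against 25.6% of all genes) and 3 were higher with the replicate block. Without HA 1, 2 were called higher, and 0 without PBAB 1, PBAB 2 or HA 2. Of 22 genes of oxidative phosphorylation, 0 were higher and 2 lower (median -0.16), Cox5b (-0.54, -0.34 over all probe sets) and Ndufa1 (-0.77). Cox5b was not called without any 1 of the 4 arrays, with the Th9 arrays fitted alone or with the mean of all its probe sets (adjusted p = 0.0913 to 0.158), and Ndufa1 was not called without any 1 of the 4 arrays, with the Th9 arrays fitted alone, with array weights or after quantile normalization again (adjusted p = 0.0513 to 0.217). Of 22 cholesterol genes, 1 was higher (Msmo1, 0.79, 0.51 over all probe sets) and 1 lower (Ebp, -0.65). Msmo1 was not called without PBAB 1, PBAB 2 or HA 2, with the Th9 arrays fitted alone or with the mean of all its probe sets (adjusted p = 0.0655 to 0.186), and Ebp was not called without any 1 of the 4 arrays, with the Th9 arrays fitted alone, with array weights or after quantile normalization again (adjusted p = 0.0534 to 0.23). Of 18 hypoxia-induced genes 1 was higher (Vegfa, 1.37), which was not called without PBAB 2, HA 1 or HA 2 (adjusted p = 0.0541 to 0.125). The replicate block gave 2 higher and 4 lower genes of oxidative phosphorylation, 3 and 3 cholesterol genes, and 4 higher hypoxia-induced genes.

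Effector granule genes showed no common direction. Of 18 cytotoxic granule genes, 2 were higher and 2 lower (11.1% each, median -0.17), against 7.39% and 6.32% of all genes. Gzma, a granule protease, had 9.36 and 12.23 in PBAB cultures, against 13.79 and 14.03 in HA cultures (-3.11 ± 0.91, adjusted p = 0.0472), where PBAB 1 lay far below PBAB 2, and was not called without PBAB 1, HA 1 or HA 2, with the Th9 arrays fitted alone, with array weights, with the mean of all its probe sets or after quantile normalization again (adjusted p = 0.0531 to 0.302). Serpinb6b, an inhibitor of granule proteases, had 8.70 and 9.57 in PBAB cultures, against 7.22 and 7.22 in HA cultures (1.92 ± 0.36), and was not called without PBAB 2 (adjusted p = 0.0521). Serpinb9 was lower (-0.98 ± 0.23) and was not called without PBAB 1, HA 1 or HA 2 or with the Th9 arrays fitted alone (adjusted p = 0.0535 to 0.127). Among 12 serpins and protease inhibitors these 2 were the called members. The granule list had 2, 1, 2 and 2 higher and 0, 2, 2 and 0 lower members without PBAB 1, PBAB 2, HA 1 or HA 2. Of 18 S100 proteins, annexins and galectins, 2 were higher and 5 lower (median -0.20). Lgals1 (galectin 1), which restrains T cells, had 12.75 and 12.77 in PBAB cultures, against 13.84 and 13.71 in HA cultures (-1.01 ± 0.17, adjusted p = 0.00347), Lgals4 rose to 8.82 and 9.47 in PBAB, against 7.02 and 6.82 in HA (2.23 ± 0.27), and S100a13 was lower (-0.84 ± 0.16) and was not called without PBAB 1 or with the Th9 arrays fitted alone (adjusted p = 0.059 to 0.0598). This list had 1, 2, 1 and 1 higher and 2, 3, 4 and 3 lower members in the fits without PBAB 1, PBAB 2, HA 1 or HA 2.

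Markers of other spleen cells were compared because HA cultures received splenocytes and PBAB cultures did not. Of 27 matched macrophage and monocyte markers, 24 were tested, 1 was higher and 8 were lower (median -0.62), against 7.39% and 6.32% of all genes. All 24 were marked by APC alone. The APC alone arrays counted toward the filter, so a marker high only there could be tested and was then marked. The marks of this list were thus largely set in advance and show no source. The summed log2 signal over the 27 was 146.5 and 153.3 in PBAB 1 and 2, 176.6 and 169.4 in HA 1 and 2, and 255.1 in APC alone. Means under 5.07 were found for 14 of the 27 markers in PBAB and for 8 in HA. Lyz2 had 5.09 and 4.88 in PBAB cultures, against 8.89 and 8.33 in HA cultures and 13.85 in APC alone (-3.63 ± 0.40, adjusted p = 0.000372), and Clec7a (dectin 1) had 5.05 and 4.87 in PBAB cultures, against 8.58 and 7.80 in HA cultures and 13.04 in APC alone (-3.23 ± 0.30, adjusted p = 0.000127). The pore-forming Mpeg1 had 4.60 and 4.57 in PBAB cultures, against 5.88 and 6.15 in HA cultures and 9.73 in APC alone (-1.43 ± 0.25). For these 3 the HA arrays stood between PBAB and APC alone. Csf1r, the receptor that defines macrophages, had 5.20 and 5.96 in PBAB cultures, against 6.33 and 6.91 in HA cultures and 11.50 in APC alone, and was not called (-1.04). Cd36 had 4.21 and 4.67 in PBAB cultures, against 4.67 and 4.18 in HA cultures and 11.46 in APC alone, and Apoe had 5.67 and 5.30 in PBAB cultures, against 6.29 and 5.24 in HA cultures and 11.40 in APC alone, so that these macrophage genes were low in both activations. Cd68, a lysosomal protein that was named after its values were seen, was the higher member, at 8.07 and 8.88 in PBAB cultures, against 7.20 and 6.74 in HA cultures, and was not called without PBAB 2, HA 1 or HA 2 (adjusted p = 0.0551 to 0.191). Without PBAB 1, PBAB 2, HA 1 or HA 2 the lower macrophage markers numbered 6, 5, 5 and 10, and 12 with the replicate block. The summed macrophage signal was lower in PBAB together with the interferon, replication and homing genes above, and its part in those counts was not tested. The counts of called lower members that APC alone did not mark were 15 of 16 type I interferon-stimulated genes, 7 of 7 GTPases, 16 of 17 replication genes, 9 of 9 mitosis genes, 8 of 9 trafficking receptors, 0 of 5 chemokine ligands and 0 of 8 macrophage markers. Of all called lower genes 10.4% were marked. The mark uses the HA arrays, and a gene high in HA is less often marked, so these counts do not show which cells a signal came from.

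**Figure D4:**
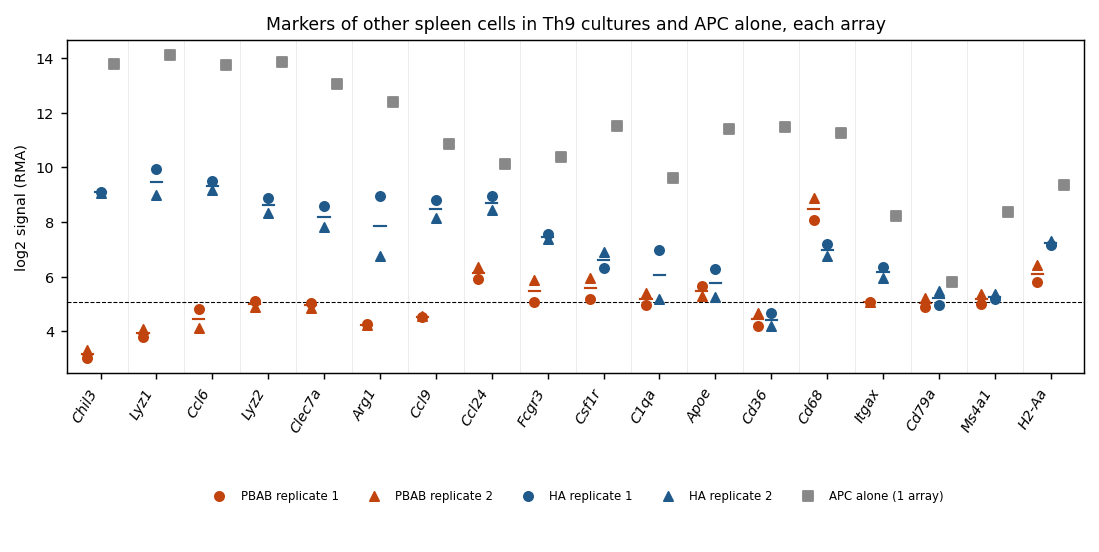
Points give the log2 signal (vertical axis) of each Th9 array for 18 genes of macrophages, dendritic cells and B cells, PBAB arrays in orange left of HA arrays in blue and the APC alone array in grey, with a dashed line at 5.07. Chil3, Lyz1 and Ccl6 lie below 5 in PBAB and near 9 in HA, whereas Cd36 lies below 5 in both and Cd68 is higher in PBAB.

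Of 13 tested genes of alternatively activated macrophages, 2 were higher (Clec10a, 1.61, and Pdcd1lg2) and 6 lower (median -0.23), and the 6 (Arg1, Chil3, Mrc1, Ccl17, Ccl22 and Ccl24) were all marked by APC alone. Clec10a was not called without PBAB 2 or HA 1 (adjusted p = 0.0531 to 0.0575), and Mrc1 (-1.13) was not called without PBAB 1, PBAB 2 or HA 1 or with the Th9 arrays fitted alone (adjusted p = 0.0527 to 0.161). The summed signal of this list was 76.3 and 78.0 in PBAB, against 89.3 and 86.5 in HA, and 112.1 in APC alone, and the lower members numbered 3, 5, 3 and 5 and the higher ones 2, 1, 1 and 2 without PBAB 1, PBAB 2, HA 1 or HA 2. Calls were also counted for other cell types, against 7.39% higher and 6.32% lower among all genes. Of 17 B cell markers, 0 were higher and 1 lower, Ighm (-0.85, -0.13 over all probe sets, not called without PBAB 1, PBAB 2 or HA 1, with the Th9 arrays fitted alone, with array weights or with the mean of all its probe sets (adjusted p = 0.0524 to 0.714)), and 2 passed an unadjusted p under 0.05 (25.6% of all genes). The summed signal of the B cell list was 92.8 and 96.1 in PBAB, against 94.5 and 97.4 in HA, and 111.0 in APC alone, and 8 of 17 markers in PBAB and 7 in HA averaged under 5.07. Of 12 neutrophil markers and 10 mast cell and basophil markers, 0 were called by limma, with 0 and 1 at an unadjusted p under 0.05. Of 12 dendritic cell markers, 2 were higher and 2 lower. The integrin gene Itgax (CD11c) had 5.08 and 5.09 in PBAB cultures, against 6.34 and 5.96 in HA cultures and 8.23 in APC alone (-1.07 ± 0.20, adjusted p = 0.0065), while Ly75 rose by 1.58 ± 0.18 and Batf3 by 1.79 ± 0.40, and Batf3 was not called without PBAB 1, HA 1 or HA 2 (adjusted p = 0.06 to 0.107). The dendritic cell list had 1, 2, 1 and 1 higher and 1, 2, 1 and 2 lower members without PBAB 1, PBAB 2, HA 1 or HA 2. Of 11 genes of MHC class II presentation, H2-Aa was lower (-1.12 ± 0.30) and was not called without PBAB 1, HA 1 or HA 2 or with array weights (adjusted p = 0.0508 to 0.22), and the other 10 were not called. Of 9 natural killer cell genes, Eomes and Gzma were lower, and 1, 3, 1 and 1 were lower without PBAB 1, PBAB 2, HA 1 or HA 2. The list of CD8 and gamma-delta T cell markers had 1 lower member of 7, Trgv4, with 3.95 and 5.92 in PBAB cultures, against 9.44 and 9.94 in HA cultures and 5.60 in APC alone. Its summed signal was 39.7 and 45.8 in PBAB, against 48.7 and 53.6 in HA, and 43.3 in APC alone. Cd8a (-0.96) and Cd8b1 (-0.87) were not called. Gata1, a factor of red cells, platelets and mast cells, was the 1 lower member of 7 erythroid and platelet markers, at 4.34 and 4.27 in PBAB cultures, against 6.15 and 5.92 in HA cultures (-1.73 ± 0.22).

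Whether these activation differences were particular to Th9 cultures was tested against Th1 and Th17 cultures, which were activated with the same antibodies or with HEL at 2 µg/ml. The antigen dose therefore differed between the cultures. TGF-beta (1 ng/ml) and IL-4 (10 ng/ml) are listed here for Th9 cultures alone, and in HA cultures they were present with the splenocytes too. Antigen dose and cytokines cannot be told apart here. The test was the difference in Th9 cultures minus the mean of the differences in Th1 and Th17 cultures, and 138 of 15498 genes were called (0.890%), 84 higher (0.542%) and 54 lower (0.348%). Set against Th1 cultures alone, 146 genes were higher (0.942%) and 66 lower (0.426%), and against Th17 cultures alone 171 (1.10%) and 94 (0.607%). With the replicate block the counts were 548 and 251. Without PBAB 1, PBAB 2, HA 1 or HA 2 they were 35, 42, 47 and 33 higher, and 33, 33, 30 and 49 lower. For Il5 the test gave 3.32 ± 0.29 (adjusted p = 0.00113), with activation differences of 3.26 ± 0.24 in Th9 cultures and 0.10 ± 0.24 in Th1 cultures and -0.24 ± 0.24 in Th17 cultures. For Chil3 it gave -5.72 ± 0.30 (adjusted p = 3.17e-05), with -5.91 ± 0.24 in Th9 cultures and -0.04 ± 0.24 in Th1 cultures and -0.35 ± 0.24 in Th17 cultures. Il6 (-3.63), Il17rb (-3.78), Cdh1 (-3.82) and the carbonic anhydrase-related Car8 (-3.28) likewise fell in Th9 cultures (for Car8 -3.46 ± 0.32, -1.30 over all probe sets), whereas their differences in Th1 and Th17 cultures lay between -0.74 and 0.04. Signal levels of these genes in Th1 and Th17 cultures are not given here. A difference near 0 there does not tell a gene low in both activations from an unchanged one. Tiam1, an activator of the GTPase Rac, had Th9 signals of 5.98 and 5.44 in PBAB cultures, against 9.94 and 9.42 in HA cultures (-3.97 ± 0.30, -1.64 over all probe sets) and differences of 0.68 ± 0.30 in Th1 cultures and 1.07 ± 0.30 in Th17 cultures, and the test gave -4.85 ± 0.37. Hopx, a homeodomain protein of effector T cells, had Th9 signals of 10.52 and 10.92 in PBAB cultures, against 8.31 and 8.41 in HA cultures (2.36 ± 0.27) and differences of -1.55 ± 0.27 in Th1 cultures and 0.62 ± 0.27 in Th17 cultures (test 2.83 ± 0.33). Bst1 (3.48), Itih5 (3.27), Upp1 (2.85), the kinase gene Lrrk1 (2.71, with 1.67 ± 0.18, 0.77 over all probe sets in Th9 cultures) and Plek (2.81) were called higher in the same test. Bst1 has another probe set, which differed by 0.14 in Th9 cultures, and Itih5 was not called in Th9 cultures without HA 2 (adjusted p = 0.0526). With the mean of all probe sets the test gave -2.06 for Tiam1, -1.28 for Car8, 1.22 for Lrrk1, -1.02 for Fut8 and -2.09 for S1pr3. Timp1, an inhibitor of matrix proteases, had Th9 signals of 8.87 and 8.16 in PBAB cultures, against 6.57 and 7.04 in HA cultures and was not called there (1.71, adjusted p = 0.0696, and adjusted p = 0.00929 with the replicate block), whereas it differed by 6.53 ± 0.55 in Th1 cultures and 3.82 ± 0.55 in Th17 cultures (test -3.47 ± 0.68). S1pr3, a receptor for sphingosine 1-phosphate, differed by 0.01 ± 0.54 in Th9 cultures and by 3.82 ± 0.54 in Th1 cultures and 4.07 ± 0.54 in Th17 cultures (test -3.94 ± 0.66). Ipcef1 was not called in Th9 cultures (0.59) and differed by -1.61 ± 0.38 in Th1 cultures and -3.47 ± 0.38 in Th17 cultures (test 3.14 ± 0.46). The test did not call Timp1 without any 1 of the 4 arrays or with the mean of all its probe sets (adjusted p = 0.053 to 0.179), S1pr3 without PBAB 2, HA 1 or HA 2 (adjusted p = 0.0794 to 0.0961) or Itih5 without PBAB 1 or HA 2 (adjusted p = 0.0542 to 0.0555). Ipcef1 was not called by it without PBAB 1 or HA 1 or with the mean of all its probe sets (adjusted p = 0.0555 to 0.0834).

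**Figure D5:**
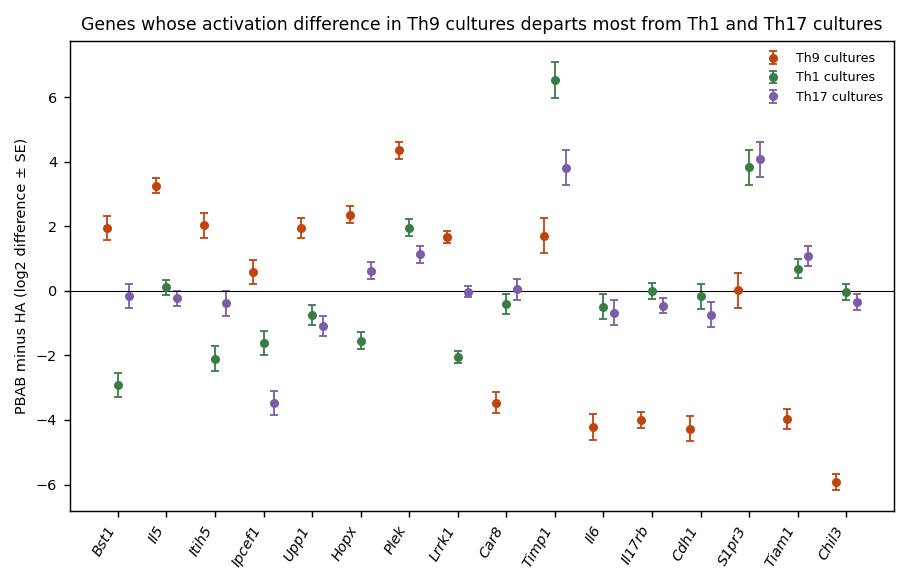
Points give the log2 difference PBAB minus HA with its SE (vertical axis) in Th9, Th1 and Th17 cultures for the 16 genes with the largest called differences of Th9 cultures from the mean of the other two, ordered from the highest to the lowest value of that test. Il5 is above 3 in Th9 cultures and near 0 in the others, Chil3 is at -5.91 in Th9 cultures and near 0 in the others, and Timp1 and S1pr3 are higher by more than 3 in the others.

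Counts of this test were also taken by list, against 0.890% of all genes called and 1830 of 15498 (11.8%) at an unadjusted p under 0.05. It called 0 of 23 ATF4 list members, 0 of 30 members of the amino acid list, 0 of 11 interferon-inducible GTPases, 0 of 29 replication genes and 0 of 27 mitosis genes by limma, with 4, 4, 0, 8 and 3 at an unadjusted p under 0.05. A p above the threshold does not show that the cultures responded alike. Of the type I interferon-stimulated genes it called 1 of 28 (Usp18), and of the p53 targets 1 of 23 (Pmaip1, 2.42). Of the type 2 genes it called 3 of 17 (Il5, Il6 and Il17rb), and of the Th1 genes 3 of 15 (Il12rb2, Eomes and Fasl). Of these, Il12rb2 was not called without PBAB 2 or HA 2 (adjusted p = 0.0749 to 0.0751). Eomes was not called without PBAB 1, PBAB 2 or HA 2 (adjusted p = 0.0734 to 0.0819), and Fasl was not called without PBAB 2 or HA 1 (adjusted p = 0.0715 to 0.0777). Gata3 (2.41 ± 0.49), Tbx21 (2.40 ± 0.52), Ifng (2.33 ± 0.59) and Il13 (2.04 ± 0.45) were not called by it, at adjusted p = 0.0558, adjusted p = 0.0677, adjusted p = 0.111 and adjusted p = 0.0681.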

How the data were processed

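Gene expression was measured on mouse arrays of 45101 probe sets in 15 samples, and the values are RMA signals on the log2 scale as deposited by the authors. RMA is named per the submitters' processing notes, without a version, and the log2 base was inferred from the range of the values. Of the probe sets, 34958 carry 1 gene symbol in the platform annotation of 2016, 932 carry several and 9211 carry none. One probe set per symbol was kept, that with the highest mean over the 15 arrays, which gave 18194 genes. Genes above the 40th percentile (5.07) in at least 2 of all 15 arrays, those of APC alone included, were tested (15498).

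Group means of all 9 groups were fitted with limma 3.58.1 in R 4.3.3 (lmFit and eBayes, 6 residual and 4.38 prior degrees of freedom), and p-values were Benjamini-Hochberg adjusted over all genes tested. The APC alone array entered no Th9 contrast, and a gene was marked where it equalled or exceeded the higher HA array. Alternatives covered filters, centring, quantile normalization, array weights, a variance trend, the mean of all probe sets, the Th9 arrays alone, the replicate block and each array left out. Same-numbered arrays deviated together in all 15 pairs of activated groups (correlations 0.296 to 0.708, and 0.580 between Th9 PBAB and Th9 HA), so the replicate numbers of the titles were taken to pair the arrays. The main fit held no replicate block, so its SEs, p-values and calls do not use this pairing, which entered only the alternatives with a block.

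The text names the 15 largest called differences in each direction whose arrays did not overlap, for every list up to 4 called members of smallest p, a list of fixed genes, the 8 largest called differences each way of Th9 from the mean of Th1 and Th17 cultures, and others stated as named after their values were seen. Members given without array values were named, after their values were seen, to account for small counts. The comparison, the gene lists and the named genes were chosen with earlier results of these data known. The number of arrays limits the precision.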

Additional observations from a re-analysis of the deposited data

Results flagged for a closer look

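In 31 named genes the activation difference in Th9 cultures departed from the mean of the differences in Th1 and Th17 cultures by limma (adjusted p under 0.05 over 15498 genes). Values below are Th9 minus that mean on the log2 scale. The antigen dose of the HA cultures and the listed cytokines differed between Th9 and the others. Of the 31, 17 were called in every fit without 1 of the 4 Th9 arrays. The other 14 were A430093F15Rik, Abcb1b, Ccl9, Eomes, Fasl, Icos, Il12rb2, Ipcef1, Itih5, Mmp12, Pdcd1lg2, S1pr3, Timp1 and Tnfsf13b. With the mean of all probe sets 5 were not called.

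Positive values were found for Bst1 (3.48), Itih5 (3.27), Ipcef1 (3.14), Upp1 (2.85), Hopx (2.83), Plek (2.81), Lrrk1 (2.71), Dapl1 (2.65), Btla (2.58), Abcb1b (2.40), Pdcd1lg2 (1.78) and A430093F15Rik (1.58). For Plek the activation differences were 4.35 ± 0.26 in Th9 cultures and 1.95 ± 0.26 in Th1 cultures and 1.13 ± 0.26 in Th17 cultures. Other genes with positive values were Il5 (3.32), Il12rb2 (2.52), Fasl (2.51) and Pmaip1 (2.42). For Fasl the differences were 2.34 ± 0.32 in Th9 cultures and -1.09 ± 0.32 in Th1 cultures and 0.75 ± 0.32 in Th17 cultures.

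Negative values were found for Chil3 (-5.72), Tiam1 (-4.85), S1pr3 (-3.94), Cdh1 (-3.82), Il17rb (-3.78), Il6 (-3.63), Timp1 (-3.47), Car8 (-3.28), Tnfsf13b (-2.86), Mmp12 (-2.85), Ccl24 (-2.69), Fut8 (-2.55), Ccl9 (-1.88), Icos (-1.70) and Eomes (-1.37). Chil3, Mmp12, Ccl24 and Ccl9 are genes that the APC alone array marked, and the part of splenocytes in them was not tested. For Tnfsf13b the differences were -5.08 ± 0.35 in Th9 cultures and -1.20 ± 0.35 in Th1 cultures and -3.24 ± 0.35 in Th17 cultures.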

How the results depend on the processing

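The count of genes called between Th9 PBAB and Th9 HA depended on the spread that the fit used. With the replicate block it was 2139 higher and 1917 lower, with the block within each culture type 2070 and 1810, and with the Th9 arrays fitted alone 695 and 584. Leaving out 1 Th9 array gave 452 to 881 higher and 500 to 604 lower genes. For the difference of Th9 from the mean of Th1 and Th17 cultures the block gave 548 higher and 251 lower, the block within each culture type 508 and 205, and leaving out 1 array 33 to 47 and 30 to 49. The cause was not tested, beyond the smaller number of arrays where arrays were left out. Filters, centring, quantile normalization again, array weights, the variance trend, the mean of all probe sets and leaving the APC alone arrays out of the fit moved these counts by less than 1.5 times. Of the 154 named genes that were called, none changed sign in any alternative run. Calls were lost for 35 without PBAB 1, 24 without PBAB 2, 27 without HA 1, 34 without HA 2, 19 with the Th9 arrays alone, 9 with the mean of all probe sets, 8 with array weights, 3 after quantile normalization, 2 without the filter and 1 with centring. The pairing of replicate numbers as a block ended none of the 154 calls. Signals near or under 5.07 limit the size of the differences of dim genes.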
